A study of Mus musculus with 2 samples.

Results

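The genes of oxidative phosphorylation were followed across the cell classes of mouse brain that carried a glioblastoma graft. Members were the symbols of the 5 respiratory chain complexes, both nuclear and mitochondrial, with at least 50 UMIs over the kept barcodes of both libraries. A UMI is a tag that marks 1 captured RNA molecule. Of 32285 genes, 107 symbols matched and 106 passed, 93 of them nuclear and 13 mitochondrial. Cox8c, the testis isoform of subunit 8, was the 1 symbol outside with 3 UMIs, and the lowest inside were Cox7b2 with 106 and Cox6a2 with 280 UMIs. The nuclear set holds 36 subunits of complex I, 4 of complex II, 8 of complex III, 17 of complex IV and 17 of complex V. It also holds 8 complex I assembly factors, the supercomplex factor Cox7a2l, the Ndufa4 paralog Ndufa4l2, and Ndufb1-ps, whose symbol marks it as a pseudogene and which GENCODE lists as a noncoding RNA. The mitochondrial set holds 7 genes of complex I, 1 of complex III, 3 of complex IV and 2 of complex V.

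Oxidative phosphorylation passes electrons from NADH and succinate along complexes I to IV of the inner mitochondrial membrane to oxygen, and complex V uses the proton gradient that this builds to make ATP. Most subunits are made from nuclear genes, while the mitochondrial genome supplies core subunits of every complex but complex II, so both genomes must be expressed. Several subunits of complex IV exist as a common form and as a form known from heart and muscle, lung or testis. In brain, neurons and the ion-pumping choroid plexus are known for a heavy use of the pathway.

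The cKO library came from a Cx3cr1 CreER/+ Plxnb2 fl/fl host and the control library from a Cx3cr1 CreER/+ Plxnb2 fl/+ host. The control, titled WT in the labels, thus carries the same CreER allele and 1 floxed Plxnb2 allele, against 2 in the cKO. Both hosts received tamoxifen at 100 mg/kg, first given 3 days before KR158 mouse glioblastoma cells were injected and then on alternate days, and brain from about 1 mm on each side of the injection was taken at week 8. The tissue was digested with papain and cleared of debris and red cells, and the labels name no sort. Cre is driven from Cx3cr1, a gene of microglia and related myeloid cells, so the model aims at those cells. Each genotype had 1 library. Differences therefore have no replicate check and no test, and the effects of genotype, of the animal and of library preparation cannot be told apart. The age of the hosts is not given in the sources used here, and neither is how many animals made up a library.

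The cKO matrix held 63785513 UMIs and the control matrix 64756949, and filtering and doublet removal left 5206 cKO and 7624 control cells. Barcodes with over 10% mitochondrial UMIs, left out throughout, made up 20.4% of those past the depth limits in the cKO library and 17.7% in the control library; this limit caps the mitochondrial members directly. The kept barcodes of the libraries shared 8 barcode strings. Clusters were named from marker genes, with the members kept out of the genes used for clustering. In every class described below all markers of its own list had UMIs in each library shown. Microglia-like cells numbered 567 in the cKO and 1285 in the control library, astrocyte-like 1527 and 2618, oligodendrocyte-like 559 and 938, endothelial-like 886 and 682, neuroblast-like 341 and 226, and ependymal-like 111 and 239. These 6 classes had at least 100 cells in both libraries and were compared. No class was named as graft cells. Smaller classes are described only, among them a choroid plexus-like class with 357 control cells and 4 cKO cells, which is given for the control alone. Plxnb2, the targeted gene, had 38.5 CPM in cKO and 200 CPM in control microglia-like cells (154 and 1108 UMIs), a log2 ratio of -2.38 (95% interval -2.63 to -2.13). CPM is the UMIs of a gene per 1e6 UMIs of its class and library, so it is relative to all RNA captured there. Which exons are floxed is not given in the sources used here, so 3′ reads may come from outside the deleted stretch. In astrocyte-like cells Plxnb2 had 38.6 CPM in the cKO and 33.1 CPM in the control library.

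Nuclear members took the largest share of the transcriptome in choroid plexus-like cells and the smallest in microglia-like cells, and both libraries gave nearly the same level for each class. Choroid plexus-like cells of the control library had 6.59% of their UMIs in the 93 nuclear members. Smooth muscle-like cells followed with 3.60% in the cKO and 3.88% in the control library, and neuroblast-like cells with 3.20% in the cKO and 3.29% in the control library. Astrocyte-like cells held 2.82% in the cKO and 2.72% in the control library. Oligodendrocyte-like, endothelial-like, pericyte-like and ependymal-like cells lay between 2.29% and 2.51% in the cKO library and between 2.25% and 2.37% in the control library. Border macrophage-like cells had 1.85% in both libraries, and microglia-like cells had 1.45% in the cKO and 1.39% in the control library. Over single microglia-like cells the lower and upper quartiles were 1.16% and 1.62% in the cKO and 1.14% and 1.56% in the control library. Classes of 1 library share its preparation, so their order is a description. Leaving aside the choroid plexus-like class, both libraries put smooth muscle-like cells highest and microglia-like cells lowest.

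**Figure D1:**
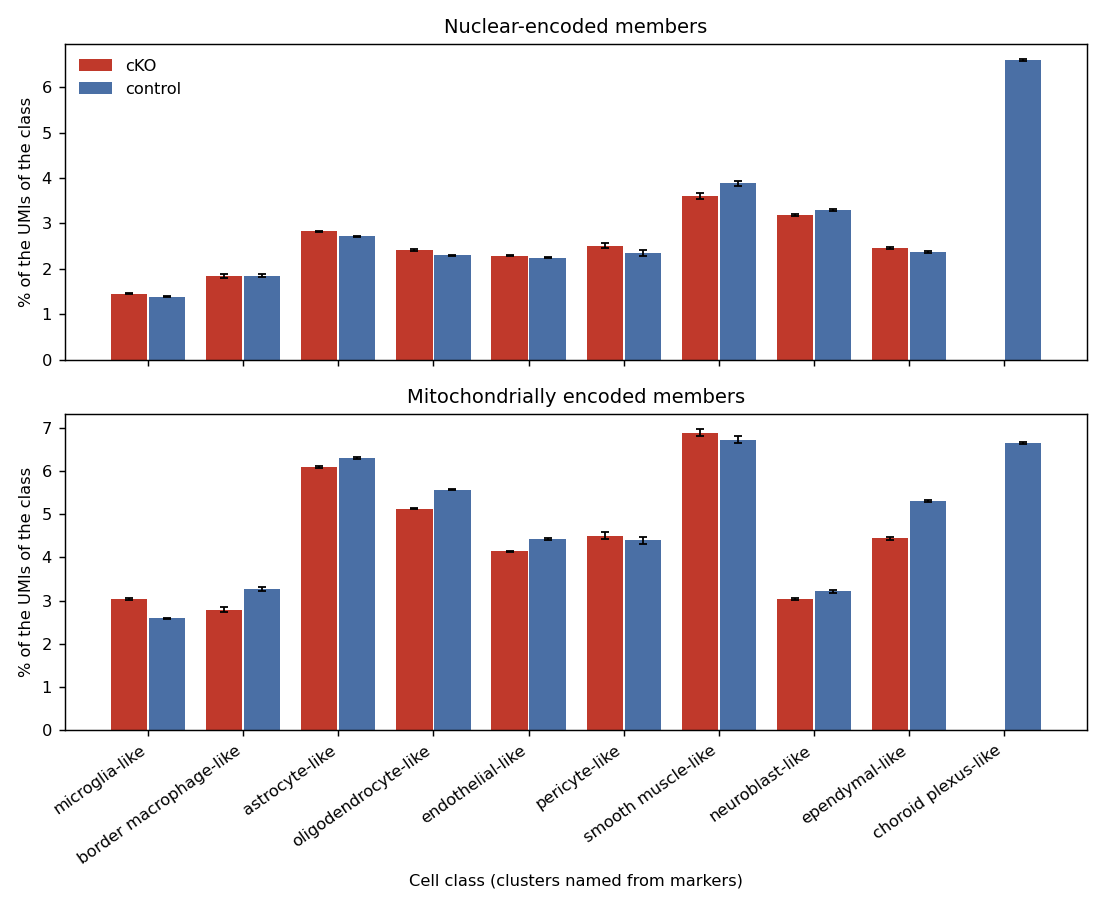
Share of all UMIs of a cell class that falls in the 93 nuclear-encoded members (top) and the 13 mitochondrially encoded members (bottom), in percent; bars are the summed cells of the cKO and the control library, error bars are exact 95% Poisson intervals for counting error. Nuclear members range from 1.45% in cKO and 1.39% in control microglia-like cells to 6.59% in control choroid plexus-like cells; the choroid plexus-like class has no cKO bar because it held 4 cKO cells.

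By its nuclear subunits, each of the 5 complexes was lowest in microglia-like cells among the classes described, in both libraries. Nuclear complex I subunits, which oxidise NADH, took 0.441% of UMIs in cKO and 0.443% in control microglia-like cells, against 0.927% in cKO and 0.886% in control astrocyte-like cells and 1.80% in control choroid plexus-like cells. Nuclear subunits of complex V, the ATP synthase, took 0.403% in cKO and 0.381% in control microglia-like cells, 0.95% in cKO and 0.966% in control neuroblast-like cells and 1.87% in control choroid plexus-like cells. Complex II, the succinate dehydrogenase that also belongs to the tricarboxylic acid cycle, was the smallest complex in every class described, at 0.0312% in cKO and 0.0325% in control microglia-like cells. Its highest share in the control library was the 0.0701% of smooth muscle-like cells, above the 0.0642% of choroid plexus-like cells. In microglia-like cells the most abundant nuclear members were Cox4i1, the common subunit 4 of complex IV, with 566 CPM in the cKO and 521 CPM in the control library, and Cox8a, the common subunit 8, with 557 CPM in the cKO and 492 CPM in the control library. In control choroid plexus-like cells Cox6c, another complex IV subunit, reached 3443 CPM and Cox8a 3312 CPM.

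Ndufaf3, Ndufaf4 and Ndufaf8 help build complex I and are not in the finished enzyme. Ndufaf8 was highest in ependymal-like cells, with 254 CPM in the cKO and 253 CPM in the control library, against a median over classes of 79.1 CPM in the cKO and 85.4 CPM in the control library. Ndufaf3 was also highest there, at 124 CPM in the cKO and 115 CPM in the control library. Ndufaf4 was highest in astrocyte-like cells, with 120 CPM in the cKO and 142 CPM in the control library, and microglia-like cells had 35.98 CPM in the cKO and 43.2 CPM in the control library. Cox7a2l, which helps join complexes III and IV, was highest in endothelial-like cells, with 256 CPM in the cKO and 254 CPM in the control library. Smooth muscle-like cells followed with 243 CPM in the cKO and 252 CPM in the control library. Microglia-like cells had 220 CPM in the cKO and 195 CPM in the control library. The median over classes was 220 CPM in the cKO and 171 CPM in the control library. Astrocyte-like cells were lowest, with 95.5 CPM in the cKO and 95.2 CPM in the control library.

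Transcripts from the mitochondrial genome followed the nuclear ones only in part from class to class. Smooth muscle-like cells had the highest mitochondrial share in both libraries, 6.89% in the cKO and 6.73% in the control library. Control choroid plexus-like cells came next in their library, with 6.64%. The 13 mitochondrial members took 6.10% of UMIs in cKO and 6.30% in control astrocyte-like cells, 3.04% in cKO and 2.59% in control microglia-like cells, and 3.04% in cKO and 3.21% in control neuroblast-like cells. Neuroblast-like cells therefore had about as many mitochondrial as nuclear UMIs, with a ratio of 0.95 in the cKO and 0.975 in the control library, and control choroid plexus-like cells had a ratio of 1.01. Every other class lay between 1.51 and 2.16 in the cKO library and between 1.73 and 2.42 in the control library. The neuroblast-like class, named from markers of immature neurons, holds a pair of clusters that differed in this. Cluster 17, with 518 CPM of the proliferation gene Mki67 in the cKO and 480 CPM in the control library, had a ratio of 0.803 in the cKO and 0.893 in the control library. Cluster 8, with 12.1 CPM of Mki67 in the cKO and 1.48 CPM in the control library, had a ratio of 1.13 in the cKO and 1.12 in the control library. Cluster 24, an unnamed group with every microglial marker, 881 CPM of Mki67 and cells almost all from the cKO library, had a ratio of 1.34, below the 2.10 of the cKO microglia-like class.

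**Figure D2:**
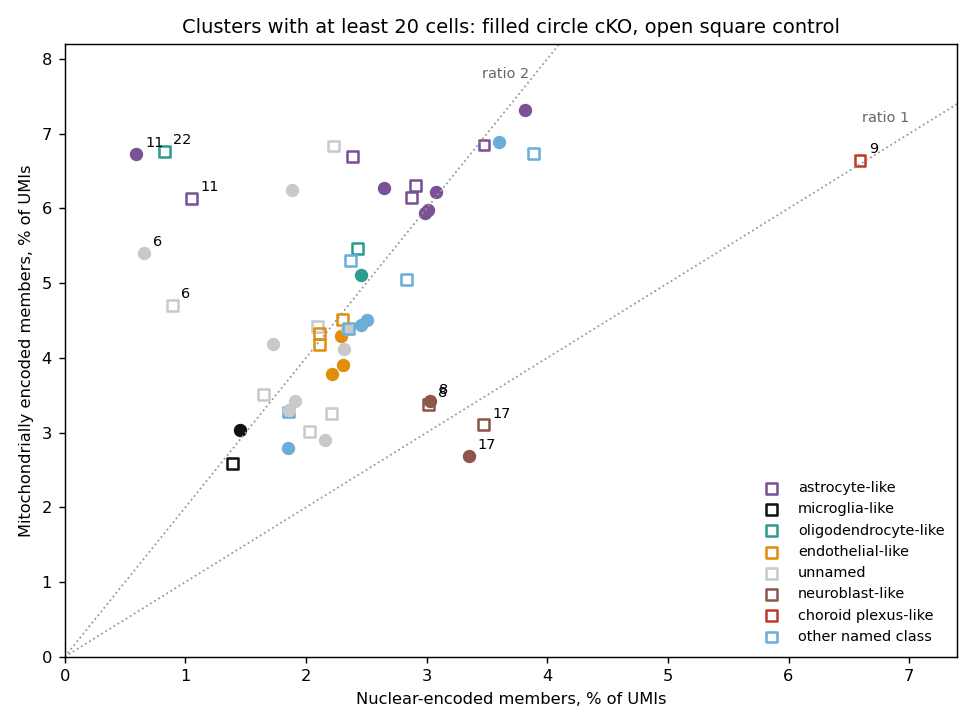
Each point is 1 cluster in 1 library with at least 20 cells: nuclear-encoded members (x axis) against mitochondrially encoded members (y axis), both as percent of UMIs; filled circles are cKO, open squares control, colours are classes and dotted lines mark mitochondrial to nuclear ratios of 1 and 2. Choroid plexus-like cluster 9 and the neuroblast-like clusters 8 and 17 lie near a ratio of 1, while clusters 6, 11 and 22 have mitochondrial shares like the others but nuclear shares of 1.05% or less.

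A few clusters had few nuclear member UMIs without few mitochondrial ones. Astrocyte-like cluster 11 had 0.594% nuclear members in the cKO and 1.05% in the control library, against 3.01% in cKO and 2.88% in control cells of astrocyte-like cluster 0. Its mitochondrial share was 6.73% in the cKO and 6.13% in the control library. The nuclear RNA Malat1 took 18.8% of its UMIs in the cKO and 20.7% in the control library, against 14.5% in cKO and 14.96% in control cells of cluster 0. Oligodendrocyte-like cluster 22 had 0.824% nuclear members in 91 control cells, against 2.45% in cKO and 2.43% in control cells of cluster 2, the main oligodendrocyte-like cluster. Unnamed cluster 6, of few UMIs and with every microglial marker, had 0.655% in the cKO and 0.890% in the control library. With cluster 22 holding 18 cKO and 91 control cells, the class value of oligodendrocyte-like cells differs more between the libraries than that of cluster 2 alone. The part of RNA quality in these values was not tested.

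Among the named classes, a pair of minor isoforms stood out in mural cells, the pericytes of capillaries and the smooth muscle cells of larger vessels. Ndufa4l2 (mm10 chr10:127514967-127517154, plus strand), a paralog of the complex IV subunit gene Ndufa4 that is known from hypoxic cells and pericytes, had 1347 CPM in cKO and 1250 CPM in control pericyte-like cells. It made up 95.4% (95% interval 93.0 to 97.2) of the UMIs of Ndufa4 and Ndufa4l2 in cKO pericyte-like cells and 93.2% (89.8 to 95.7) in control ones. Smooth muscle-like cells held both genes, with Ndufa4l2 at 38.3% (33.5 to 43.2) in the cKO and 28.4% (24.2 to 33.0) in the control library. In endothelial-like cells its share was 4.06% in the cKO and 3.20% in the control library, and in microglia-like, astrocyte-like, oligodendrocyte-like, neuroblast-like and ependymal-like cells it was at most 1.05% in the cKO and 0.316% in the control library. Most UMIs of the gene lay outside the named classes, however, with 71.4% of those in the cKO and 60.2% of those in the control library in unnamed clusters. Cluster 7, which carried all 10 endothelial and all 8 pericyte markers, had 349 CPM in the cKO and 319 CPM in the control library. Smooth muscle-like cells also held markers of other vessel cells. Their pericyte markers summed to 3642 CPM in the cKO and 2137 CPM in the control library, against 33705 CPM and 33107 CPM in pericyte-like cells. Their endothelial markers summed to 1638 CPM in the cKO and 64.2 CPM in the control library. The part of such admixture in the isoform shares was not tested.

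Cox4i2 (mm10 chr2:152754173-152765037, plus strand), the lung isoform of complex IV subunit 4, was high in the same classes. It had 698 CPM in cKO and 568 CPM in control pericyte-like cells, where it made up 50.8% (46.0 to 55.7) of subunit 4 UMIs in the cKO and 46.6% (40.7 to 52.6) in the control library. In smooth muscle-like cells its share was 17.8% (14.4 to 21.5) in the cKO and 16.0% (13.1 to 19.2) in the control library, but with a mitochondrial limit of 5% it was 7.27% in the cKO and 7.5% in the control library, and the Ndufa4l2 share of cKO smooth muscle-like cells was 25.2%. Endothelial-like cells, which line the same vessels, had 1.76% in the cKO and 1.98% in the control library. Astrocyte-like cells had 12 CPM of Cox4i2 in the cKO and 9.33 CPM in the control library, and cluster 7 had 186 CPM in the cKO and 158 CPM in the control library. After each cell was thinned to 1000 UMIs, Cox4i2 was seen in 54.0% of cKO and 35.5% of control pericyte-like cells but in 0.529% of cKO and 0.156% of control microglia-like cells. The pericyte-like class has 100 cKO and 93 control cells with 309479 and 230432 UMIs, so the ratios between libraries are loose there.

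Cox6a2 (mm10 chr7:128205435-128206387, minus strand), the heart and muscle isoform of complex IV subunit 6a, was found in microglia-like cells. They had 112 UMIs in the cKO and 101 in the control library, 28.0 CPM and 18.2 CPM, and these made up 78.9% of all Cox6a2 UMIs of kept cKO cells and 81.5% of kept control cells. Within subunit 6a the share was 15.1% (12.6 to 17.9) in cKO and 11.1% (9.16 to 13.4) in control microglia-like cells. In each other class described here Cox6a2 had at most 0.371 CPM in the cKO library. In the control library border macrophage-like cells had 5.14 CPM, from 3 UMIs, and each remaining class described here had at most 0.585 CPM. Outside these, the 27 control cells of a neuron-like cluster held 1 UMI, and the unnamed cluster 12 had 27.7 CPM in the cKO and 25.7 CPM in the control library, from 9 and 6 UMIs. The unnamed cluster 24 had 24.8 CPM in the cKO library, from 12 UMIs. Clusters 12 and 24 both carried every microglial marker. Smooth muscle-like cells, which belong to a muscle lineage, had 0 UMIs in both libraries; with 3 UMIs as the limit that a count of 0 allows, that is up to 7.91 CPM in the cKO and 7.13 CPM in the control library. At least 1 Cox6a2 UMI was seen in 10.9% of cKO and 5.21% of control microglia-like cells, and in 0.196% of cKO and 0.153% of control astrocyte-like cells. The median depths were 6094 UMIs in cKO and 3942 in control microglia-like cells and 4987 in cKO and 4381 in control astrocyte-like cells. After thinning to 1000 UMIs the share was 2.82% of cKO and 1.17% of control microglia-like cells.

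**Figure D3:**
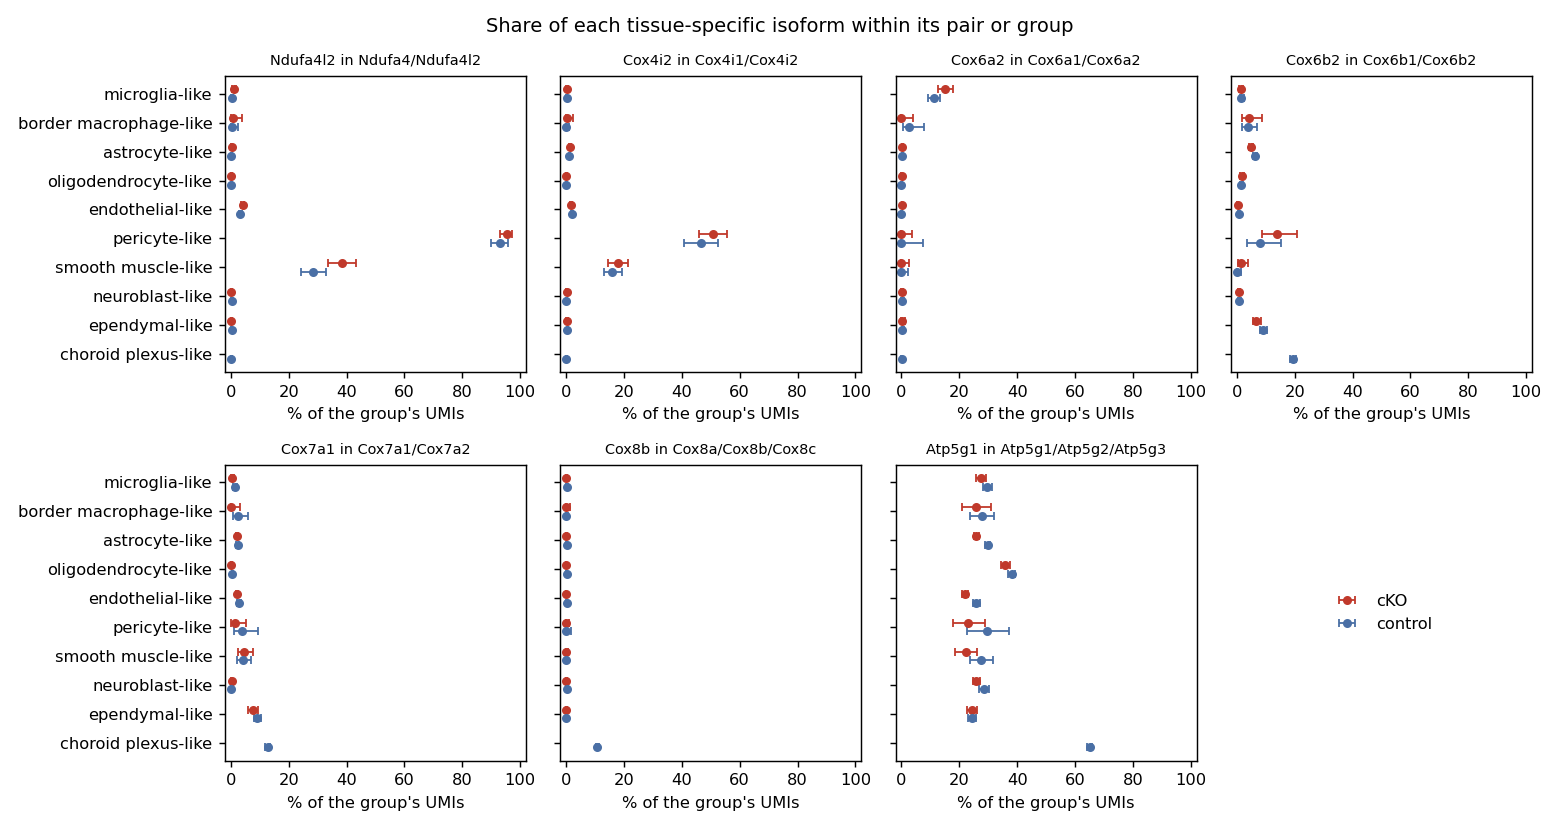
Share of each tissue-specific isoform in the UMIs of its pair or group (x axis, percent) for each cell class (y axis), cKO above control within a class; points are summed cells, bars exact 95% Clopper-Pearson intervals. Ndufa4l2 and Cox4i2 stand out in pericyte-like and smooth muscle-like cells, Cox6a2 in microglia-like cells with 15.1% in the cKO and 11.1% in the control library, and Cox6b2, Cox7a1, Cox8b and Atp5g1 in control choroid plexus-like cells.

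Choroid plexus-like cells, named for the epithelium that makes cerebrospinal fluid, were high in RNA of several tissue isoforms and of Atp5g1. Whether single cells held these together was not examined. In the 357 control cells, Cox8b, the heart and muscle isoform of subunit 8, had 400 CPM and made up 10.8% (10.3 to 11.3) of subunit 8 UMIs. Cox6b2, the testis isoform of subunit 6b, had 239 CPM and made up 19.5% (18.5 to 20.6) of subunit 6b UMIs. Cox7a1, the heart and muscle isoform of subunit 7a, had 158 CPM and made up 12.8% (11.9 to 13.7) of subunit 7a UMIs. Atp5g1, 1 of 3 genes for the same c subunit of the ATP synthase rotor, had 2168 CPM and made up 65.0% (64.2 to 65.8) of their UMIs, while over the other classes it made up from 22.02% to 35.9% in the cKO and from 24.4% to 38.0% in the control library. Atp5g2 led the group in microglia-like cells, with 56.2% in the cKO and 53.8% in the control library, and made up 13.9% in control choroid plexus-like cells. Single choroid plexus-like cells varied: Cox8b had at least 1 UMI in 197 of the 357 cells and 77 UMIs in the highest cell.

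Of these, Cox8b was the most restricted. In the control library 96.1% of its 1851 UMIs lay in choroid plexus-like cells, and each other class described here had at most 2.37 CPM. Ttr, the thyroid hormone carrier made by this epithelium, was also seen in the other classes: it had 261984 CPM in control choroid plexus-like cells and 1539 CPM in control microglia-like cells. Per 1000 Ttr UMIs, Cox8b had 1.53 UMIs (95% interval 1.46 to 1.60) in choroid plexus-like cells, 0.702 (0.258 to 1.53) in microglia-like and 1.97 (1.32 to 2.83) in astrocyte-like cells of the control library. In cKO astrocyte-like cells 8 UMIs of Cox8b stood beside 11 of Ttr, 0.99 CPM and 1.36 CPM, and the other 8 cKO classes described here had 0 UMIs of Cox8b. The part of free RNA in these low levels was not tested. Cox6b2 and Cox7a1 were not so restricted. Ependymal-like cells, which line the ventricles, had 34.3 CPM of Cox6b2 in the cKO and 44.1 CPM in the control library, and 31.4 CPM of Cox7a1 in the cKO and 35.6 CPM in the control library. Cox7b2, the testis isoform of subunit 7b, had 3.71 CPM in cKO and 4.58 CPM in control astrocyte-like cells, from 30 and 56 UMIs, and 0 to 1 UMI in each other class described here.

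Promoter sequences from RefSeq (GRCm38.p6, 250 bases before to 50 after the start) are shown for the common subunit 8 gene and for the 3 complex IV isoform genes that were high in choroid plexus-like cells. Capitals in Cox8a mark ACTTCCGG, the reverse complement of CCGGAAGT, the core bound by GABP (also called NRF2), a factor known to drive respiratory genes. Capitals in Cox8b mark TATAAA, the letters of the box that often lies a short way before a start. They were searched after the sequences were seen and here lie just after the annotated start. Cox8a lies at chr19:7217567-7217866, Cox8b at chr7:140900397-140900696 and Cox6b2 at chr7:4753045-4753344, all on the minus strand, and Cox7a1 lies at chr7:30183921-30184220 on the plus strand.
Cox8a: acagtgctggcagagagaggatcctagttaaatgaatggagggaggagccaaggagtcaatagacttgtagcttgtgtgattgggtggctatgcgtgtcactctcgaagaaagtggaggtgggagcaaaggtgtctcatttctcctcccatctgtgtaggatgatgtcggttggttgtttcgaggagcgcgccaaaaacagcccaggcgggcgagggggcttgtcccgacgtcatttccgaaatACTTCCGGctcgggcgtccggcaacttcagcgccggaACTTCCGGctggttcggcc
Cox8b: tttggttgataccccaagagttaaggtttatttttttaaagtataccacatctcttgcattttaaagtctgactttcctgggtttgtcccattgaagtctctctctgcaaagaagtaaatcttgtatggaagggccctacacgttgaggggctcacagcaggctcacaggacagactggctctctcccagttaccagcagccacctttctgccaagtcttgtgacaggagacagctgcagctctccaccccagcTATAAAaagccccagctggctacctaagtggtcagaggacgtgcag
Cox7a1: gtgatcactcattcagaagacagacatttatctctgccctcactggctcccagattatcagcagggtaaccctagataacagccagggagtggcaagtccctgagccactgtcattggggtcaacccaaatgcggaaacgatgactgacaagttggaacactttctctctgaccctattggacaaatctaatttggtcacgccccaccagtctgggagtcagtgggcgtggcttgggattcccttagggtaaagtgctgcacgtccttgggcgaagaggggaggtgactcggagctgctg
Cox6b2: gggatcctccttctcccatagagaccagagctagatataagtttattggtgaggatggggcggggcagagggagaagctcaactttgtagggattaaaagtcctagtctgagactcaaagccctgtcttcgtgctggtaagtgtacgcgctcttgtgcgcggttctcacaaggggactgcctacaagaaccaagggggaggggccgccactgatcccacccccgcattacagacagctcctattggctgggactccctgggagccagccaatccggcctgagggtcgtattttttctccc
On both strands, CCGGAAGT occurred in 5 of the 75 nuclear members that matched by symbol, or 6.67%, and in 4.31% of 27025 genes. GCATGCGC, the core of NRF1, occurred in 12 of 75, or 16.0%, against 3.05% of all genes, and AAGATGGCG, the core of YY1, in 8 of 75, or 10.7%, against 1.64%. TATAAA occurred in 8 of 75, or 10.7%, against 15.7% of all genes. The members with GCATGCGC include Atp5g2, and none of these 4 motifs was in the windows of Atp5g1, Cox7a1 or Cox6b2. Median GC content was 58.7% in members and 53.3% in all genes. These letters are matches in a window and not measured binding.

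Between genotypes, the nuclear members differed little in every class compared. Their summed share was 1.45% in cKO and 1.39% in control microglia-like cells, a log2 ratio of 0.06 (0.04 to 0.08) that ran from 0.04 to 0.16 over the alternatives run. The log2 ratio is cKO over control, and its interval covers counting error alone. It was 0.05 in astrocyte-like, 0.07 in oligodendrocyte-like, 0.02 in endothelial-like and 0.05 in ependymal-like cells, and -0.04 in neuroblast-like cells. A member with a mean of at least 20 CPM was called higher or lower where its ratio reached 1.5-fold and its interval left out 0. In microglia-like cells 84 nuclear members were measured, and 1 was called higher and 0 lower, against 4.94% of all 6372 genes measured there in either direction. Their median log2 ratio was 0.04, and that of all genes was -0.0019. No nuclear member was called in the other classes, among 83 to 87 measured, where 1.7% of all genes were called in astrocyte-like, 1.64% in oligodendrocyte-like, 2.4% in endothelial-like, 4.27% in neuroblast-like and 2.79% in ependymal-like cells. In microglia-like cells 78 of the 84 members lay within 0.25 of 0 on the log2 scale. The same count over all genes was not made, so it is not read as a trait of the members.

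By complex, the sums of nuclear subunits in microglia-like cells ran from about even to slightly higher in the cKO. Complex I, at 0.441% in the cKO and 0.443% in the control library, had a log2 ratio of -0.01 (-0.04 to 0.02), and complex II had -0.06 (-0.16 to 0.05). Complex III, which passes electrons to cytochrome c, took 0.146% in the cKO and 0.135% in the control library, a ratio of 0.12 (0.07 to 0.16). Complex IV, the cytochrome c oxidase, took 0.357% in the cKO and 0.330% in the control library, also 0.12 (0.08 to 0.15). Complex V had 0.08 (0.05 to 0.11). All of these are far under 1.5-fold.

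Among single members in microglia-like cells, Cox6a2 was the 1 called member, with 28.0 CPM in the cKO and 18.2 CPM in the control library, a log2 ratio of 0.62 (0.22 to 1.02). It rests on few cells: 22 of the 112 cKO UMIs lay in 2 cells, and without the 2 cells of each library that held the most, a choice made after seeing the data, it had 22.7 CPM in the cKO and 16.5 CPM in the control library, a ratio of 0.46 (0.03 to 0.90) and no call. Nor was it called with doublets kept, at 0.58. Uqcrq, an accessory subunit of complex III, had 243 CPM in the cKO and 176 CPM in the control library, a ratio of 0.47 (0.34 to 0.60). Atp5g2 had 393 CPM in the cKO and 320 CPM in the control library, 0.30 (0.20 to 0.40). Ndufa5, an accessory subunit of complex I, had 96.2 CPM in the cKO and 124 CPM in the control library, -0.36 (-0.55 to -0.18). None of these 3 reached 1.5-fold.

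The other ends lay closer to even. Ndufa9, in complex I, had 74.2 CPM in the cKO and 63.8 CPM in the control library. Cox7b, a complex IV subunit, had 165 CPM in the cKO and 175 CPM in the control library. Sdhb, the iron-sulphur subunit of complex II, had 122 CPM in the cKO and 114 CPM in the control library, and Sdha, its flavoprotein, had 88.2 CPM in the cKO and 100.0 CPM in the control library. Uqcrc2, a core protein of complex III, had 86.7 CPM in the cKO and 93.9 CPM in the control library. Atp5b, the catalytic beta subunit of complex V, had 220 CPM in the cKO and 238 CPM in the control library. The interval of the ratio included 0 for each of these 6 genes.

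The mitochondrial members moved apart by class. In microglia-like cells they took 3.04% of UMIs in the cKO and 2.59% in the control library, a summed log2 ratio of 0.23 (0.22 to 0.24), which was 0.31 with a limit of 20% on mitochondrial UMIs and 0.40 with none. In the other 5 classes the sum was lower in the cKO: 6.10% in cKO and 6.30% in control astrocyte-like cells (-0.05), 5.13% in cKO and 5.57% in control oligodendrocyte-like cells (-0.12), 4.14% in cKO and 4.43% in control endothelial-like cells (-0.10), 3.04% in cKO and 3.21% in control neuroblast-like cells (-0.08), and 4.44% in cKO and 5.30% in control ependymal-like cells (-0.26). The sign held under every alternative run in microglia-like, oligodendrocyte-like, endothelial-like and ependymal-like cells. In astrocyte-like cells it turned to a positive ratio with limits of 5% or 20% or no limit on mitochondrial UMIs, up to 0.06, and to 0.0013 when each cell counted equally. In neuroblast-like cells it turned to 0.0039 when each cell counted equally. The mitochondrial to nuclear ratio was 2.10 in cKO and 1.86 in control microglia-like cells, and 1.81 in cKO and 2.24 in control ependymal-like cells.

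Gene by gene, 11 of the 13 mitochondrial members had a ratio above 0 in microglia-like cells, and all 13 were below 0 in ependymal-like cells. For each of the 13 the ratio in microglia-like cells was above those of the other 5 classes. The highest in microglia-like cells was mt-Co1, the catalytic subunit of complex IV, with 4787 CPM in the cKO and 3578 CPM in the control library, 0.42 (0.39 to 0.45). Next came mt-Nd4, of complex I, with 2196 CPM in the cKO and 1732.5 CPM in the control library, 0.34 (0.30 to 0.38). The complex I genes mt-Nd4l, mt-Nd3, mt-Nd5 and mt-Nd1 had ratios of 0.26, 0.18, 0.14 and 0.11. mt-Co2 and mt-Co3 of complex IV had 0.24 and 0.20, mt-Cytb of complex III had 0.20, and mt-Atp6 and mt-Atp8 of complex V had 0.24 and 0.06. mt-Nd2 at -0.02 and mt-Nd6 at -0.07 lay at about even. No mitochondrial member reached 1.5-fold in microglia-like cells.

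**Figure D4:**
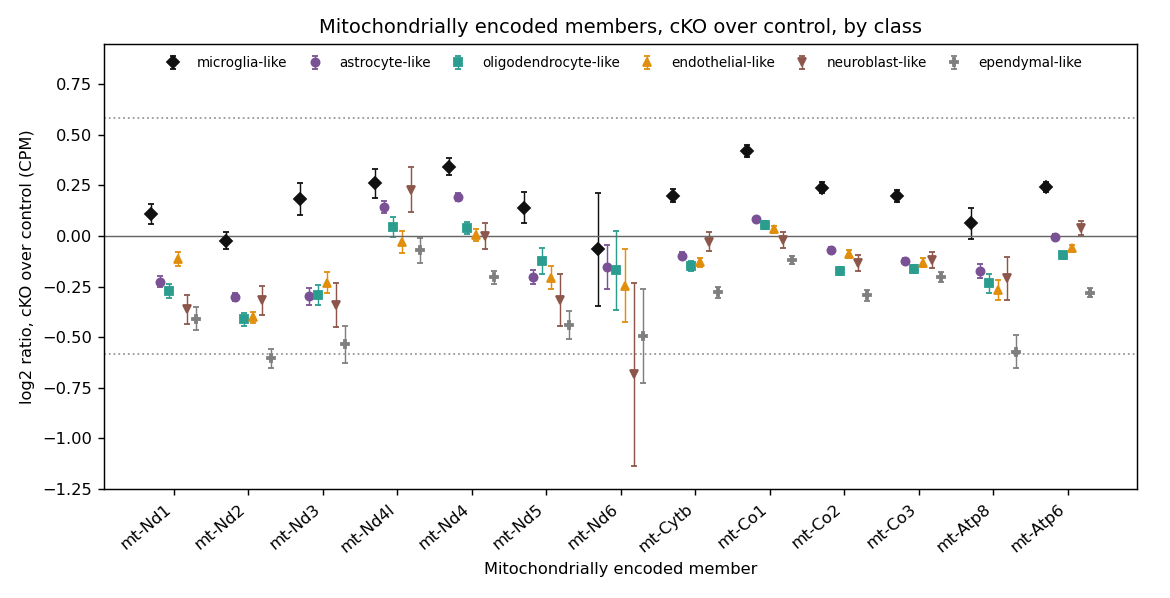
Log2 ratio of CPM, cKO over control (y axis), for the 13 mitochondrially encoded members (x axis) in the 6 classes compared; points are summed cells, bars exact 95% intervals for counting error, dotted lines 1.5-fold. The microglia-like points (black diamonds) run from -0.07 to 0.42 and lie above those of the other classes for every gene; mt-Nd2 is below 0 in all 6 classes.

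mt-Nd2, of complex I, had a ratio below 0 in all 6 classes, with an interval that included 0 in microglia-like cells. It had 1840 CPM in cKO and 2800 CPM in control ependymal-like cells, a log2 ratio of -0.61 (-0.65 to -0.56) that counts as lower, beside 0.823% of all genes called lower in that class. It did not reach 1.5-fold with a mitochondrial limit of 5% (-0.52), of 20% (-0.58) or none (-0.56), after thinning (-0.42) or as a mean over cells (-0.52). It had 2524 CPM in cKO and 3360 CPM in control oligodendrocyte-like cells (-0.41), 2613 CPM in cKO and 3455 CPM in control endothelial-like cells (-0.40), and 4072 CPM in cKO and 5027 CPM in control astrocyte-like cells (-0.30). Neuroblast-like cells had a ratio of -0.32 and microglia-like cells -0.02, from 1852 CPM in the cKO and 1881 CPM in the control library.

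mt-Nd6, the 1 member on the light strand of the mitochondrial genome, was called lower in neuroblast-like cells, with 30.6 CPM in the cKO and 49.2 CPM in the control library (85 and 84 UMIs), a ratio of -0.68 (-1.14 to -0.23), beside 2.51% of all genes. After thinning its ratio was 0.30, with an interval from -1.13 to 1.87, so the direction is not fixed at this depth. mt-Nd4l overlaps mt-Nd4 and mt-Atp8 overlaps mt-Atp6, and reads in the shared stretch may be counted for either.

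Some nuclear members were on one side in all 6 classes, with small sizes. Of 96 members measured in every class, 5 were lower in the cKO in each (5.21%) and 8 higher in each (8.33%). Over all 3497 genes measured in every class these shares were 3.80% and 7.72%, close to those of the members. Apart from mt-Nd2 and mt-Nd6, the lower ones were Atp5k, Cox7b and Ndufaf4, with ratios between -0.27 and -0.01. Atp5k had 1277 CPM and Cox7b 1099 CPM in control choroid plexus-like cells. Atp5l, which was higher in the cKO in each class, had 1863 CPM there. Ttr had 8541 UMIs in control and 6 in cKO microglia-like cells. The part of free choroid plexus RNA in the lower ratios was not tested. The higher ones were Atp5g2, Atp5g3, Atp5l, Cox6b1, Cox7a2, Cox7a2l, Ndufs3 and Uqcrfs1, with ratios from 0.0041 to 0.32. The smallest, that of Atp5g2 in neuroblast-like cells, is under the median of all genes there, 0.03, so scaling to that median would turn it. The classes share the same pair of libraries and so do not count as repeats. Among c subunit genes, the share of Atp5g1 was 27.6% in cKO and 29.6% in control microglia-like cells, 25.9% in cKO and 29.9% in control astrocyte-like cells, and 22.02% in cKO and 25.9% in control endothelial-like cells. It was 24.4% in both libraries in ependymal-like cells. Atp5g1 had 2168 CPM in control choroid plexus-like cells, and the part of free RNA in these shares was not tested either.

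Measures of RNA quality also differed between the libraries. The rRNA-like gene models took 1.47% of UMIs in cKO and 3.26% in control microglia-like cells and were lower in the cKO in each of the 6 classes, with log2 ratios from -1.15 to -0.91. Malat1 took 3.12% in cKO and 4.02% in control microglia-like cells, and cytosolic ribosomal protein genes 11.3% in the cKO and 9.33% in the control library. Cells of the microglia-like class were also deeper in the cKO, with a median of 6094 UMIs, against 3942 in the control library. In microglia-like cells the markers of border macrophages summed to 288 CPM in the cKO and 227 CPM in the control library. Most of this came from the highest of the 9, at 262 CPM in the cKO and 213 CPM in the control library. The lowest was at 0.2498 CPM in the cKO and 0.180 CPM in the control library. Markers of monocytes or macrophages summed to 38.5 CPM over 7 of 8 markers in the cKO and 8.29 CPM over 6 of 8 in the control library. The part of these in the member ratios was not tested. As microglia-like cells are 1 cluster and cluster 24 and the low-depth clusters 6 and 12 stand outside it, the sums were also taken over all cells with every microglial marker: nuclear members then had a ratio of 0.16 and mitochondrial members 0.21.

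Few genes of related mitochondrial lists were called in microglia-like cells, where 4.94% of all 6372 genes measured were called in either direction. At that share lists this short would hold few calls. Of 39 assembly factors outside the set, 20 were measured and 0 were called, with a median log2 ratio of -0.02; the farthest were Tmem70, an ATP synthase assembly factor, with 34.7 CPM in the cKO and 44.3 CPM in the control library, and Uqcc3, of complex III. Of 16 genes of the tricarboxylic acid cycle 15 were measured and 0 called, with a median of -0.02 and Fh1, fumarase, at 19.7 CPM in the cKO and 26.5 CPM in the control library. Of 19 genes of mitochondrial gene expression and biogenesis 9 were measured and 0 called. Among them was Tfam, which packages mitochondrial DNA and helps start its transcription. It had 21.98 CPM in the cKO and 31.9 CPM in the control library, a ratio of -0.54 (-0.92 to -0.16). Mterf3 had 25.5 CPM in the cKO and 37.8 CPM in the control library, -0.57 (-0.93 to -0.22). Of 13 electron carriers and transporters 12 were measured and 0 called, and Ucp2, an inner membrane carrier, had 421 CPM in the cKO and 332 CPM in the control library, 0.34 (0.25 to 0.44). Of 78 mitochondrial ribosomal protein genes 70 were measured and 1 was called higher, Mrps11, with 48.5 CPM in the cKO and 28.8 CPM in the control library, 0.75 (0.44 to 1.06), beside 2.93% of all genes called higher.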

How the data were processed

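Droplet libraries (10x 3′ v3.1) of brain tissue, 1 cKO and 1 control, were deposited as UMI counts per gene and barcode. Per the submitters' processing notes they were made with Cell Ranger 7.1.0 on mm10; the sources used here do not say whether intron reads were counted. The deposited cKO matrix held 2377349 barcodes, empty droplets included, and the control matrix 10942, none under 500 UMIs.

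Barcodes with at least 1000 UMIs, at least 500 genes and at most 10% mitochondrial UMIs were kept, 5398 cKO and 8068 control. Scrublet, at an assumed rate of 6%, removed 3.56% and 5.50% of these. Clusters (scanpy 1.11.5, 2000 variable genes without the members, 30 components, 15 neighbours, Leiden resolution 1.0) were named from 20 marker lists, so classes are rebuilt and not the authors'. For each class and library the UMIs of all cells were added up and given as CPM with exact Poisson 95% intervals; shares have Clopper-Pearson intervals and ratios exact conditional ones. Thinning drew 1000 UMIs per cell. Intervals, and the floor of 3 UMIs for a count of 0, cover counting error only. The ratio step was tested on simulated data. Reads of nuclear pseudogene copies may be split or lost in the authors' counting.

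The members and lists were chosen with earlier results of these data known. Named were the tissue isoforms, all mitochondrial members, called members, the microglial extremes of each complex, the 10 nuclear members most raised in 1 class over the median class, Plxnb2, and up to 3 genes of each related list; the most abundant members, the ones on 1 side in all classes, and Mki67, Ttr and Malat1 were chosen after their values were seen. Gene positions are from GENCODE and promoters from RefSeq (GRCm38.p6), where 75 of 93 nuclear members matched. Alternatives changed the filters, doublets, clustering, scaling and call rule. Intervals were computed with scipy 1.17.1.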

Additional observations from a re-analysis of the deposited data

Results flagged for a closer look

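The mitochondrial members had a summed log2 ratio, cKO over control, of 0.23 in microglia-like cells and of -0.26 in ependymal-like cells, opposite directions in classes of the same libraries. With 1 library per genotype the difference between these classes was not tested.

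Barcodes with at least 500 and under 1000 UMIs, which the comparisons do not use, had 21.8% mitochondrial UMIs in the cKO library (2518 barcodes) and 8.39% in the control library (945 barcodes). The deposited control matrix holds no barcode below 500 UMIs, so the shallower ones can be seen in the cKO library alone, where the share was 17.2% above 100 and below 500 UMIs and 12.3% at 100 UMIs or fewer.

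Ndufa4l2 had 349 CPM in the cKO and 319 CPM in the control library in unnamed cluster 7, which carries every endothelial and every pericyte marker and is in no comparison. The cluster holds 2164 of the 3096 Ndufa4l2 UMIs of kept cKO cells and 905 of the 1540 of kept control cells.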

How the results depend on the processing

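In microglia-like cells the summed log2 ratio of nuclear members, 0.06, was 0.083 with a limit of 5% on mitochondrial UMIs, 0.091 with 20%, 0.088 with none, 0.097 with doublets kept, 0.13 at Leiden resolution 2.0, 0.042 as a mean over cells and 0.16 over all clusters with every microglial marker, an alternative added after seeing the data. That of mitochondrial members, 0.23, was 0.31 with the 20% limit, 0.40 with none, 0.28 with doublets kept and 0.21 over all those clusters. The count of nuclear members called, 1, was 0 with doublets kept and 0 at 2-fold, 2 after thinning, 2 with no CPM minimum and 3 at the looser fold tried, where mitochondrial calls were 2 instead of 0. mt-Nd6 in neuroblast-like cells reversed to 0.30 after thinning. Of the 6 classes compared, the sign of the nuclear sum was kept in all alternatives run in 5, with ependymal-like cells at -0.05 after thinning, and that of the mitochondrial sum in 4. The causes were not tested. No paired analysis was possible because each genotype has 1 library. Mitochondrial values are bounded by the 10% limit itself, and members under 20 CPM were too shallow to compare.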
